A study of Mus musculus with 6 samples.

Results

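The beta-arrestins and the G protein-coupled receptor kinases (GRKs) were followed in liver-derived RNA of mice on a high-fat diet, with ARRB1 knocked out or intact. The labels give liver as the source and hepatocyte as the cell type, and do not say whether whole liver or isolated cells were used. The members are the 7 gene rows of the expression table with the symbols Arrb1, Arrb2, Adrbk1, Adrbk2, Grk4, Grk5 and Grk6, of 46095 symbols in all. Adrbk1 and Adrbk2 are older symbols of the genes for GRK2 and GRK3. The first group, HFD-ARRB1-KO, held 3 libraries from C57BL/6 mice with ARRB1 knocked out. The second group, HFD-WT, held 3 libraries from wild-type C57BL/6 mice. Every mouse of both groups had been fed the high-fat diet for 26 weeks, so the data hold no lean reference. For 2 of the knockout libraries, replicates 2 and 3, the genotype field reads ARRB2 or ARRB3 where the title reads ARRB1, and the groups here follow the titles. The age and sex of the mice, the deleted part of the gene, and whether the deletion was limited to a cell type are not given in the sources used here. Nor is it stated whether replicates were separate animals, so a p-value here reflects how much these libraries vary, which may be technical.

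GRKs phosphorylate receptors that have bound their ligand, and beta-arrestins then bind the phosphorylated receptor. Bound arrestin stops coupling to G proteins, links the receptor to clathrin and the AP2 adaptor for endocytosis, and can hold kinases such as those of the MAP kinase cascade. GRK2 and GRK3 are brought to the membrane by free G protein beta-gamma subunits, while GRK4, GRK5 and GRK6 form a subfamily that attaches to the membrane through lipid modification or lipid binding. In the liver these proteins act on receptors for hormones such as glucagon, vasopressin and catecholamines.

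The members are paralogs, and their coding sequences were compared because reads shared between paralogs would blur the separate levels. The stretch around the longest identical run of 3 pairs is shown in spliced coding sequence of GENCODE vM21 on GRCm38, 5′ to 3′ on the gene's own strand, with the identical run in capitals. Arrb1 is shown from exon 14 (chr7:99598494-99598559, plus strand), and Arrb2 from exon 13 (chr11:70439665-70439730, plus strand). Adrbk1 (chr19:4305928-4306005, minus strand) and Adrbk2 (chr5:113015393-113015470, minus strand) are shown from exon 1. Grk5 (chr19:61069374-61072478, plus strand) and Grk6 (chr13:55451399-55451564, plus strand) are shown across the junction of exons 6 and 7.
Arrb1: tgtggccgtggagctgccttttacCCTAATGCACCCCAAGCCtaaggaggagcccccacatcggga
Arrb2: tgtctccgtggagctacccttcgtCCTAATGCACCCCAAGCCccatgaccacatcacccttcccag
Adrbk1: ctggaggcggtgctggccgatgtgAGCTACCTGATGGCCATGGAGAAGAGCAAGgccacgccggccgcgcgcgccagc
Adrbk2: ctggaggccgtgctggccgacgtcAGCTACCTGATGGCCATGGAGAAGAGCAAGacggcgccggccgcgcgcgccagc
Grk5: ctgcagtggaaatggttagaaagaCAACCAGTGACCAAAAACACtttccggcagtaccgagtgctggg
Grk6: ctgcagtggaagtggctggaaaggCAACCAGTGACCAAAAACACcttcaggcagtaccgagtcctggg
The longest identical run was 18 bases between Arrb1 and Arrb2, 30 bases between Adrbk1 and Adrbk2, and 20 bases between Grk5 and Grk6. Aligned coding sequence was 73.6% identical for Arrb1 and Arrb2, 74.7% for Adrbk1 and Adrbk2 and 69.8% for Grk5 and Grk6. None of the 11 pairs within the 2 families shared a run of 50 bases. Read length is not given in the sources used here, and untranslated regions were not compared.

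Levels are given in FPKM, a fragment count divided by gene length and by the fragment total of the library, so levels of different genes can be set side by side. The libraries held an estimated 13.91, 35.06 and 29.17 M fragments in knockout replicates 1 to 3, against 33.32, 27.91 and 30.31 M in wild-type replicates 1 to 3. Differences were tested with limma on log2(FPKM + 1), knockout minus wild type, over the 10633 genes that averaged 1 FPKM or more across the libraries, and a gene was called at a Benjamini-Hochberg adjusted p under 0.05. Of the 7 members, 4 passed this filter (Arrb1, Adrbk1, Grk5 and Grk6) and 3 did not (Arrb2, Adrbk2 and Grk4). Called were 2 of these 4, Arrb1 and Grk5, both lower in the knockout. Arrb1 is the gene knocked out, so its fall is part of the design. Over all tested genes, 6.9% were called in either direction, 5.3% higher and 1.6% lower. Each library is 1 bulk sample, in which fewer cells of a type and less RNA per cell cannot be told apart.

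Arrb1, the gene of beta-arrestin 1, spans chr7:99535466-99606771 (GRCm38, plus strand). It had 0.918, 1.05 and 1.16 FPKM in HFD-ARRB1-KO replicates 1 to 3, against 3.86, 22.7 and 16.9 FPKM in HFD-WT replicates 1 to 3. The groups did not overlap, but wild-type replicate 1 stood far below the other wild-type libraries and at 3.33 times the highest knockout library. Arrb1 fell to 1.04 ± 0.121 FPKM in the knockout, against 14.5 ± 9.63 FPKM in wild type (SD, n = 3 each), which is 7.2% of the wild-type mean. The log2 fold change was -2.64 (SE 0.51, 95% interval -3.83 to -1.45), with an adjusted p of 0.0275 in limma's test. The exact two-sided permutation test gave p = 0.1, the smallest that 3 against 3 libraries allow.

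The knockout libraries were not empty of Arrb1. Their values stood for 91, 262 and 241 reads, against 916, 4506 and 3652 reads in the wild-type libraries. A gene-level value does not show which exons those reads came from. By level among the 10633 tested genes, Arrb1 ranked 10489 in the knockout and 3102 in wild type. The coefficient of variation was 11.6% over the knockout libraries, against 66.5% over the wild-type libraries, where it was wider than that of 98.8% of tested genes. The call of Arrb1 was also close to the threshold, and it was lost without the filter (adjusted p = 0.117) and with robust eBayes (0.0769). With knockout replicate 1, 2 or 3 left out its adjusted p was 0.0606, 0.0985 or 0.0662, in that order. Leaving out wild-type replicate 2 gave 0.0904 and leaving out wild-type replicate 3 gave 0.0698. When the low wild-type replicate 1 was left out, the adjusted p was 0.00105 and the log2 fold change was -3.33. Mir326, a microRNA gene in an Arrb1 intron, was listed at 0 in all 6 libraries.

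Arrb2 encodes beta-arrestin 2, the other widely expressed beta-arrestin (chr11:70432635-70440828, plus strand). It had 0.362, 0.717 and 0.552 FPKM in knockout replicates 1 to 3, against 0.272, 0.613 and 0.432 FPKM in wild-type replicates 1 to 3. The ranges of the groups overlapped, and the mean was 0.544 ± 0.178 FPKM in the knockout and 0.439 ± 0.171 FPKM in wild type (SD, n = 3 each). Without the filter, where 0.65% of 22476 genes were called, its log2 fold change was 0.10 (95% interval -0.20 to 0.41; limma adjusted p = 0.732). The interval is on log2(FPKM + 1), which understates the change of low genes, so it does not bound the fold change of Arrb2. Nor does it show that the groups were alike. These levels rest on as few as 5, 25 and 16 reads in the knockout libraries and 9, 17 and 13 in the wild-type libraries, and the true counts may be a whole multiple of these. Counting error alone put knockout replicate 1 between 0.117 and 0.844 FPKM (exact Poisson 95% interval). Arrb2 is the only member whose exons overlap those of another annotated gene, Mir7115, over 64 bases.

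Summed over both genes, beta-arrestin mRNA came to 1.28, 1.77 and 1.71 FPKM in knockout replicates 1 to 3, against 4.13, 23.3 and 17.3 FPKM in wild-type replicates 1 to 3. Arrb1 made up 66.3 ± 6.31% of that sum in the knockout and 96.1 ± 2.32% in wild type (SD, n = 3 each). Arrb1 therefore held the larger share of the sum in all 6 libraries, and the ranges of its share did not overlap between the groups. Arrb1 is the gene knocked out, so its lower share is part of the design. Which exons its reads in the knockout libraries came from is not known.

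**Figure D1:**
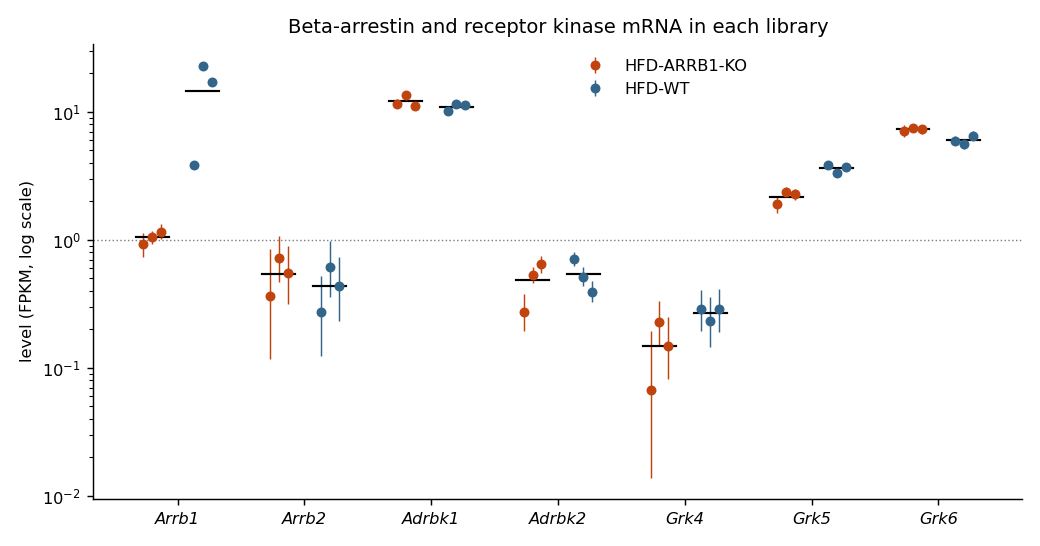
Level of each beta-arrestin and receptor kinase gene in FPKM on a log axis, with 1 point per library and HFD-ARRB1-KO left of HFD-WT. Horizontal lines are group means, vertical lines are exact Poisson 95% intervals from the smallest whole reads that fit (counting error only), and the dotted line marks 1 FPKM, which the mean over all libraries had to reach to pass the filter. Arrb1, Grk4, Grk5 and Grk6 have groups that do not overlap, and wild-type replicate 1 of Arrb1 lies at 3.86 FPKM, below 22.7 and 16.9 FPKM.

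Grk5 was the only receptor kinase gene called among the 3 that passed the filter. Its product, GRK5, acts at the plasma membrane and, in cardiac muscle, is known to enter the nucleus (chr19:60889749-61095968, plus strand). Grk5 had 1.89, 2.36 and 2.27 FPKM in knockout replicates 1 to 3, against 3.87, 3.35 and 3.69 FPKM in wild-type replicates 1 to 3. Each knockout library was below each wild-type library. Grk5 fell to 2.17 ± 0.251 FPKM in the knockout, against 3.63 ± 0.263 FPKM in wild type (SD, n = 3 each), or 59.8% of the wild-type mean. The log2 fold change was -0.55 (SE 0.11, 95% interval -0.79 to -0.30; limma adjusted p = 0.0265; exact permutation p = 0.1).

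The values of Grk5 stood for 174, 549 and 438 reads in the knockout libraries and 853, 619 and 740 reads in the wild-type libraries. The call was close to the threshold. It was lost when any of the 6 libraries was left out, with adjusted p between 0.0532 and 0.0912 and log2 fold changes between -0.59 and -0.48. It was also lost without the filter, at an adjusted p of 0.0922 over 22476 genes. By size on log2(FPKM + 1), 92.1% of tested genes had a smaller change than Grk5, and 99.8% a smaller change than Arrb1. That scale understates the change of low genes. With a pseudocount of 0.1 the log2 fold change was -0.719 for Grk5 and -3.34 for Arrb1.

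Grk6, a broadly expressed kinase best known in immune cells and neurons, stood on the other side of zero (chr13:55445072-55460927, plus strand). It had 7.10, 7.45 and 7.29 FPKM in knockout replicates 1 to 3, against 5.93, 5.62 and 6.49 FPKM in wild-type replicates 1 to 3. Each knockout library was above each wild-type library, with means of 7.28 ± 0.179 FPKM in the knockout and 6.02 ± 0.441 FPKM in wild type (SD, n = 3 each). The log2 fold change of 0.24 (SE 0.09, 95% interval 0.04 to 0.44) did not pass the test, with a limma adjusted p of 0.135 and an unadjusted p of 0.0243. An unadjusted p under 0.05 was reached by 25.3% of tested genes, and the median log2 fold change of all tested genes was 0.07. No alternative tried gave a call, and the log2 fold change was 0.16 when libraries were scaled by the median of ratios or quantile-normalized. Relative to the median of all tested genes in the same fit, it was 0.167 as reported, 0.163 with median-of-ratios scaling and 0.166 in quantile-normalized values.

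Adrbk1 encodes GRK2, the most studied kinase of the family, which also phosphorylates proteins other than receptors (chr19:4286001-4306222, minus strand). It had 11.5, 13.6 and 11.0 FPKM in knockout replicates 1 to 3, against 10.1, 11.4 and 11.4 FPKM in wild-type replicates 1 to 3. The groups overlapped, with means of 12.0 ± 1.36 FPKM in the knockout and 11.0 ± 0.736 FPKM in wild type (SD, n = 3 each). The log2 fold change was 0.12 (95% interval -0.12 to 0.36; limma adjusted p = 0.513), an interval that lies above the whole interval of Grk5.

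Adrbk2 encodes GRK3, the close relative of GRK2 (chr5:112910482-113015791, minus strand). It had 0.273, 0.530 and 0.641 FPKM in knockout replicates 1 to 3, against 0.706, 0.515 and 0.393 FPKM in wild-type replicates 1 to 3. The groups overlapped, and without the filter the log2 fold change was -0.06 (95% interval -0.36 to 0.25; limma adjusted p = 0.85). The scale of that fit, log2(FPKM + 1), understates the change of low genes, so the interval does not bound the fold change of Adrbk2.

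Grk4, a kinase known from testis and kidney, was the lowest member in both groups (chr5:34660379-34755305, plus strand). It had 0.0666, 0.229 and 0.148 FPKM in knockout replicates 1 to 3, against 0.287, 0.232 and 0.285 FPKM in wild-type replicates 1 to 3. The groups came within 1.01-fold of each other without overlapping, and the lowest library, knockout replicate 1, rested on 3 reads and was also the shallowest. Without the filter, groups that do not overlap were found for 20.2% of 22476 genes, with the knockout lower for 5.89%. The log2 fold change was -0.15 (95% interval -0.287 to -0.0047; limma adjusted p = 0.307, unadjusted p = 0.0448), which did not pass the test. The knockout mean was 55.1% of the wild-type mean, and log2(FPKM + 1) understates the change of low genes. An unadjusted p under 0.05 was reached by 15.6% of genes without the filter. Among the 4 members that passed the filter, 3 had groups that do not overlap, against 31.2% of all genes that passed it. Of these, Arrb1 and Grk5 were lower in the knockout, against 7.81% of genes, and Grk6 was higher, against 23.4%. The separation of Arrb1, the gene knocked out, is part of the design, so only Grk5 and Grk6 can be set against these shares.

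**Figure D2:**
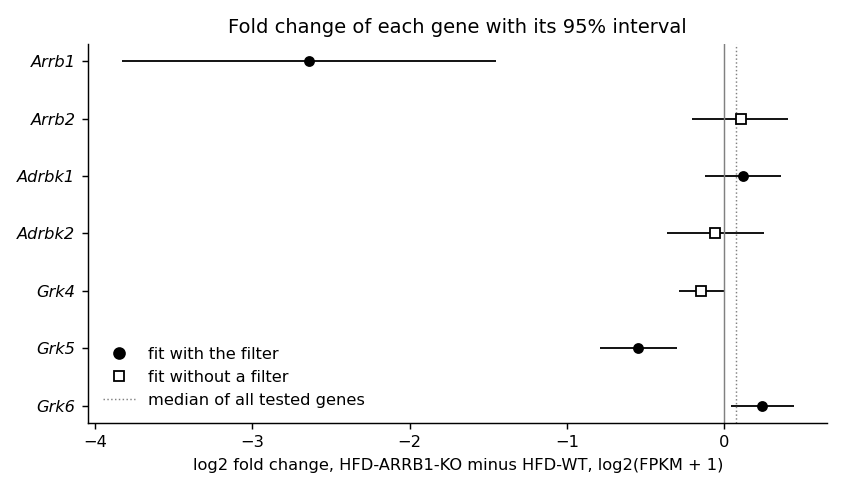
Log2 fold change of each gene, HFD-ARRB1-KO minus HFD-WT on log2(FPKM + 1), with its 95% interval from limma on 3 against 3 libraries. Filled circles are from the fit with the filter and open squares from the fit without it, and the dotted line is the median of all genes tested with the filter, 0.07. Arrb1 at -2.64 and Grk5 at -0.55 lie left of zero with their whole intervals, and Grk6 at 0.24 lies right of it without passing the adjusted threshold.

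By level per length, the order in the knockout was Adrbk1 at 12.0, Grk6 at 7.28, Grk5 at 2.17, Arrb1 at 1.04, Arrb2 at 0.544, Adrbk2 at 0.482 and Grk4 at 0.148 FPKM. Among neighbours in that order, only Arrb2 and Adrbk2 had ranges that overlapped over the 3 libraries. In wild type the order was Arrb1 at 14.5, Adrbk1 at 11.0, Grk6 at 6.02, Grk5 at 3.63, Adrbk2 at 0.538, Arrb2 at 0.439 and Grk4 at 0.268 FPKM. There the ranges of Arrb1 and Adrbk1, of Adrbk2 and Arrb2, and of Arrb2 and Grk4 overlapped, so those neighbours did not differ beyond their spread. Arrb1 thus stood in the fourth place in the knockout and led the order in wild type, where it exceeded Adrbk1 in 2 of 3 libraries.

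The 5 kinases summed to 20.8, 24.1 and 21.3 FPKM in knockout replicates 1 to 3, against 20.9, 21.1 and 22.2 FPKM in wild-type replicates 1 to 3. These sums overlapped, with means of 22.1 ± 1.78 FPKM in the knockout and 21.4 ± 0.706 FPKM in wild type (SD, n = 3 each). The difference of 0.679 FPKM turned to -0.823 under median-of-ratios scaling and -0.972 in quantile-normalized values, and was -0.338 when knockout replicate 2 was left out.

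Within that sum Grk5 made up 9.07, 9.8 and 10.6% in knockout replicates 1 to 3, against 18.5, 15.9 and 16.6% in wild-type replicates 1 to 3. Grk6 made up 34.1, 30.9 and 34.2% in the knockout libraries, against 28.4, 26.6 and 29.2% in the wild-type libraries. Neither share overlapped between the groups. Nor did that of Grk4, at 0.32 to 0.948% in the knockout and 1.1 to 1.37% in wild type. The share of Adrbk1, 54.3 ± 2.47% in the knockout and 51.2 ± 2.81% in wild type, overlapped. Shares of the same sum are tied, so a lower share of Grk5 raises the others. Without Grk5, the ratio of Grk6 to Adrbk1 overlapped, at 0.55 to 0.664 in the knockout and 0.493 to 0.587 in wild type. How often such shares separate for other genes was not tested. The ratio of Grk5 to Grk6, which a constant factor per library cannot change, was 0.266, 0.317 and 0.311 in knockout replicates 1 to 3, against 0.652, 0.596 and 0.568 in wild-type replicates 1 to 3. This ratio was chosen after the values were seen and is given with no test.

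**Figure D3:**
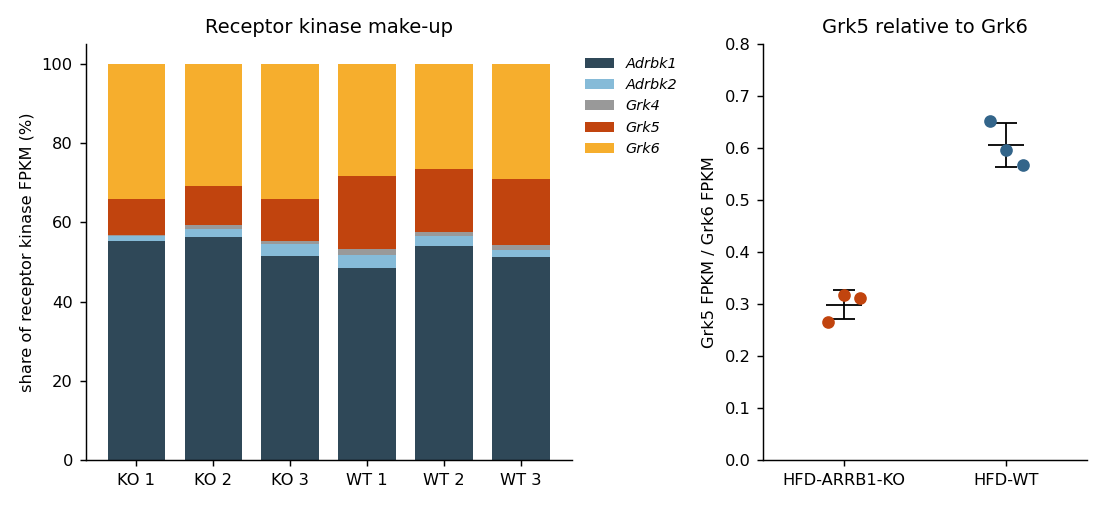
Left, share of each receptor kinase gene in the summed FPKM of the 5 kinases, in percent, for each library with the 3 HFD-ARRB1-KO libraries left of the 3 HFD-WT libraries. Right, ratio of Grk5 to Grk6 FPKM, with 1 point per library, mean and SD, at 0.298 ± 0.0278 in the knockout and 0.605 ± 0.0425 in wild type.

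The genes whose log2(FPKM + 1) followed a member most closely over the 6 libraries were found by Pearson's r among all tested genes, as a description of 6 points that share the genotype difference. For Arrb1 they were Pcgf5 (r = 0.994), a Polycomb group protein, Lifr (r = 0.992), the receptor of leukemia inhibitory factor, and Gopc (r = 0.986), a Golgi protein. Lifr had 20.7, 19.5 and 20.6 FPKM in knockout replicates 1 to 3, against 25.0, 38.1 and 38.6 FPKM in wild-type replicates 1 to 3. Its wild-type replicate 1 was the lowest of its group, which follows from choosing Lifr by its closeness to Arrb1 and says nothing further about that library. For Grk5 they included Aldoc (r = 0.995), an aldolase, and Mmab (r = 0.992), an enzyme of cobalamin metabolism. Aldoc averaged 1.79 FPKM in the knockout and 5.5 FPKM in wild type. For Grk6 they were Acp5 (r = 0.9996), the tartrate-resistant acid phosphatase of macrophages and osteoclasts, Serf2 (r = 0.999) and Zfand3 (r = 0.996). Acp5 averaged 47.9 FPKM in the knockout and 33.0 FPKM in wild type. For Adrbk1 they were Epsti1 (r = 0.992), Cfap97 (r = 0.990) and Ear2 (r = 0.985).

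Of 79 other genes of this machinery, 63 passed the filter and 5 of them (7.94%) were called, close to the 6.9% of all tested genes. The median log2 fold change of the 63 was 0.14, against 0.07 for all tested genes, and 76.2% of them were above zero, against 63.6% of all.

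Among receptors that GRKs and beta-arrestins regulate, 2 of the 6 tested passed, 1 in each direction, and the other 6 listed receptors were below the filter. Avpr1a, the vasopressin receptor of hepatocytes, had 6.14, 4.49 and 4.21 FPKM in knockout replicates 1 to 3, against 18.2, 30.1 and 20.7 FPKM in wild-type replicates 1 to 3. All knockout libraries were below all wild-type libraries, and Avpr1a fell by 2.0 on the log2 scale (SE 0.20, limma adjusted p = 0.00339), a call that every alternative kept. S1pr2, a receptor of sphingosine 1-phosphate, had 3.7, 5.04 and 3.63 FPKM in knockout replicates 1 to 3, against 2.18, 1.46 and 1.59 FPKM in wild-type replicates 1 to 3. It rose by 0.90 on the log2 scale (SE 0.15, limma adjusted p = 0.0178), with an adjusted p of 0.0595 if knockout replicate 2 was left out and 0.0717 if wild-type replicate 2 was, and 0.0815 without the filter. Agtr1a, the angiotensin II receptor, averaged 25.0 FPKM in the knockout and 32.2 FPKM in wild type. It was not called (limma adjusted p = 0.0607), but was called lower under median-of-ratios scaling, in quantile-normalized values, with array weights, with the filter at 5 FPKM and by voom. The glucagon receptor Gcgr averaged 82.7 FPKM in the knockout and 81.5 FPKM in wild type (limma adjusted p = 0.892). Adra1b averaged 15.6 FPKM in the knockout and 18.6 FPKM in wild type (limma adjusted p = 0.103). S1pr1 averaged 19.4 FPKM in the knockout and 25.1 FPKM in wild type (limma adjusted p = 0.136). The median of the 6 receptors was -0.30.

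Of the partners that carry receptors into endosomes with clathrin and AP2, 1 of 19 tested was called. Rab4a, a small GTPase of fast recycling from early endosomes, had 20.1, 23.4 and 16.4 FPKM in knockout replicates 1 to 3, against 12.6, 12.1 and 13.9 FPKM in wild-type replicates 1 to 3. It rose by 0.59 on the log2 scale (SE 0.13, limma adjusted p = 0.0418). Of the kinases and phosphatases that beta-arrestins scaffold, 1 of 14 tested was called. Gsk3a, a kinase held in an arrestin complex with Akt, had 22.9, 25.6 and 23.8 FPKM in knockout replicates 1 to 3, against 18.1, 17.4 and 19.2 FPKM in wild-type replicates 1 to 3. It rose by 0.38 on the log2 scale (SE 0.08, limma adjusted p = 0.039). Neither Rab4a nor Gsk3a was called under median-of-ratios scaling or in quantile-normalized values.

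Of the binding partners and inhibitors of GRKs, 1 of 12 tested was called. Pebp1, the Raf kinase inhibitor protein that also binds and inhibits GRK2, had 153, 159 and 151 FPKM in knockout replicates 1 to 3, against 116, 98.5 and 120 FPKM in wild-type replicates 1 to 3. It rose by 0.47 on the log2 scale (SE 0.10, limma adjusted p = 0.0352), and was not called after median-of-ratios scaling. The medians of these 3 lists were 0.16, 0.11 and 0.17, against 0.07 for all tested genes. Under median-of-ratios scaling they were 0.07, 0.02 and 0.08, against -0.007 for all tested genes. None of Rab4a, Gsk3a and Pebp1 was called without the filter. Gsk3a was not called with any of the 6 libraries left out (limma adjusted p = 0.0538 to 0.134). Rab4a was called only when the library left out was knockout replicate 3 (otherwise 0.0655 to 0.136), and Pebp1 only when it was wild-type replicate 3 (otherwise 0.0681 to 0.125).

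Of the enzymes that attach ubiquitin to beta-arrestins or remove it, 0 of 7 were called by limma on FPKM, with 3 at an unadjusted p under 0.05. Among all tested genes, 25.3% had an unadjusted p under 0.05 in limma. The smallest p was that of Wwp2, a ubiquitin ligase, at 8.47 ± 0.452 FPKM in the knockout and 6.58 ± 0.219 FPKM in wild type (SD, n = 3 each; limma adjusted p = 0.0607), the 1 gene of this list that was called by voom, with TPM and with array weights. The deubiquitinase Usp20 averaged 2.78 FPKM in the knockout and 1.98 FPKM in wild type (limma adjusted p = 0.104). The ligase Mdm2 averaged 5.61 FPKM in the knockout and 4.46 FPKM in wild type (limma adjusted p = 0.174).

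Of the alpha-arrestins, distant relatives of the beta-arrestins, 0 of 5 were called by limma on FPKM, with 0 at an unadjusted p under 0.05 and 0 called by voom. Txnip, an inhibitor of thioredoxin and of glucose uptake, averaged 143 ± 70.5 FPKM in the knockout and 163 ± 41.9 FPKM in wild type (SD, n = 3 each). Arrdc1 averaged 1.34 FPKM in the knockout and 0.863 FPKM in wild type, and Arrdc2 averaged 2.5 FPKM in the knockout and 3.28 FPKM in wild type, both without passing the test. The visual arrestin Arr3 and the rhodopsin kinase Grk1 were listed at 0 in all 6 libraries, and Sag, the rod arrestin, was above 0 only in wild-type replicates 1 and 3, at 0.0346 and 0.0317 FPKM.

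**Figure D4:**
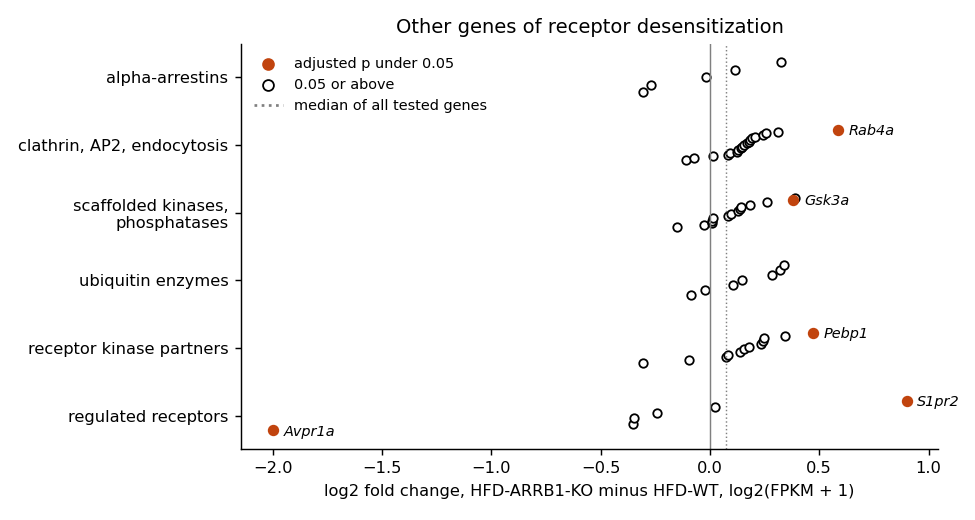
Log2 fold change, HFD-ARRB1-KO minus HFD-WT on log2(FPKM + 1), of the 63 tested genes in 6 lists, with 1 point per gene. Filled points passed limma's test at an adjusted p under 0.05 and the dotted line is the median of all tested genes, 0.07. Avpr1a at -2.0 and S1pr2 at 0.90 lie farthest from zero.

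The labels name hepatocytes as the cell type, and markers of other liver cells were present too, with no marker of any list at 0 in every library. Hepatocyte markers summed to 44200 to 51900 FPKM in the knockout libraries and 44600 to 53400 FPKM in the wild-type libraries. Of the 7, Cps1 and Tat were called lower in the knockout. Among all tested genes, 6.9% were called in either direction, 5.3% higher and 1.6% lower. Cps1 kept its call in all 17 alternatives, while Tat (limma adjusted p = 0.0495) lost it in 13, including 5 of the 6 with a library left out, where it kept the call only without knockout replicate 3. Kupffer cell markers summed to 161 to 172 FPKM in the knockout libraries and 158 to 184 FPKM in the wild-type libraries. Of the 6, Vsig4 was called lower (limma adjusted p = 0.0436), a call lost in 9 of 17 alternatives and, among libraries left out, kept only without wild-type replicate 3, while Adgre1, at 12.9 FPKM in the knockout and 9.66 FPKM in wild type, was not called. Sinusoidal endothelium markers summed to 69.6 to 81.5 FPKM in the knockout libraries and 62.9 to 74.6 FPKM in the wild-type libraries. Of the 5, Lyve1 and Pecam1 were called higher, and Clec4g and Kdr had log2 fold changes of -0.13 and -0.06. Lyve1 kept its call in all 17 alternatives, and Pecam1 (limma adjusted p = 0.0487) lost it in 10, among libraries left out keeping it only without knockout replicate 1.

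Knockout replicate 2 had the highest sums of all libraries for monocyte-derived macrophage, general leukocyte, T and NK cell, B cell and stellate cell markers. Its sums for Kupffer cell markers (172 FPKM) and neutrophil markers (4.92 FPKM) lay within the wild-type ranges, 158 to 184 and 1.37 to 5.08 FPKM. Monocyte-derived macrophage markers summed to 22.9, 49.9 and 27.8 FPKM in knockout replicates 1 to 3, with wild-type libraries at 13.6, 11.3 and 19.4 FPKM. Cd9 was the largest part of this sum in every library and was not called (limma adjusted p = 0.0842). It had 17.8, 27.8 and 20.1 FPKM in the knockout libraries and 11.7, 8.69 and 16.6 FPKM in the wild-type libraries. General leukocyte markers summed to 13.0, 28.2 and 14.0 FPKM in the knockout libraries and 11.1, 9.32 and 11.3 FPKM in the wild-type libraries. Neither sum overlapped between the groups. Of single tested genes, 23.4% did not overlap with the knockout higher, a share that was not counted for sums. The mean difference was 18.8 FPKM for the macrophage markers and 10.6 FPKM without knockout replicate 2, and 7.84 FPKM for the leukocyte markers and 2.94 FPKM without that library. Of 4 tested macrophage markers 1 was called, Gpnmb, which passed the filter only through the knockout libraries, with 2.42, 9.66 and 3.4 FPKM in the knockout and 0.126, 0.16 and 0.174 FPKM in wild type. That call was lost without the filter (limma adjusted p = 0.0883) and without wild-type replicate 2 (0.0709). Of the leukocyte markers, 0 of 3 tested were called by limma on FPKM, with 1 at an unadjusted p under 0.05 and 0 called by voom. Stellate cell markers summed to 106 to 145 FPKM in the knockout libraries and 97.9 to 124 FPKM in the wild-type libraries, with 0 of 6 called by limma on FPKM, 2 at an unadjusted p under 0.05 and 0 called by voom. Without knockout replicate 2, the mean difference of the stellate cell markers turned from 9.58 to -2.22 FPKM. That of the neutrophil markers turned from 0.495 to -0.0912 FPKM. Among all tested genes, limma called 6.9%, and 25.3% had an unadjusted p under 0.05. T and NK cell markers summed to 1.41 to 3.21 FPKM in the knockout libraries and 0.958 to 1.52 FPKM in the wild-type libraries, and none passed the filter. The part of these cell types in the values of Grk6, Grk5, Acp5 or the other genes above was not tested.

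**Figure D5:**
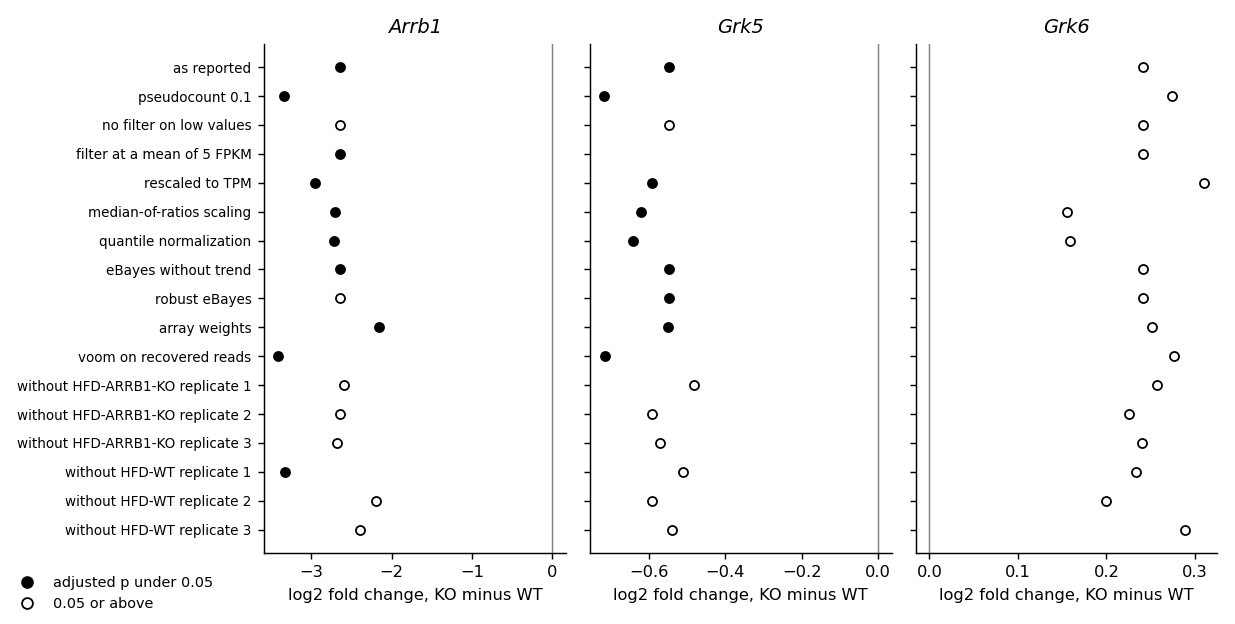
Log2 fold change, HFD-ARRB1-KO minus HFD-WT, of Arrb1, Grk5 and Grk6 as reported and under each alternative named at the left, with a separate axis range per gene. Filled points have an adjusted p under 0.05 and open points 0.05 or above. All points of Arrb1 and Grk5 lie below zero and all points of Grk6 above it, while the calls of Arrb1 and Grk5 are lost in part of the alternatives.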

How the data were processed

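The authors deposited 1 FPKM value per gene symbol and library. The submitters' processing notes name Bowtie 0.12.2, HISAT2, mm8 and mm10. Their roles, the annotation and the treatment of reads matching several genes are not given in the sources used here. The labels' protocols name Trizol, 1 ug of total RNA and an Illumina TruSeq kit. Strand is not given, so antisense partners cannot be told apart.

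Members, lists and tests were chosen with earlier results of these data known. The test was limma 3.58.1 (R 4.3.3; lmFit, then trended eBayes, two-sided) with a genotype term alone. It was run on log2(FPKM + 1), which understates the change of low genes, for genes that averaged 1 FPKM or more. P-values were adjusted by Benjamini-Hochberg over all tested genes.

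FPKM steps gave whole reads for 17545 of 17549 genes (99.98%) above 0 in at least 4 libraries, within 0.001 reads and never more than 0.02 reads off. The depths rest on the lengths of genes with 1 annotated transcript and are estimates: 492 of 2735 such genes fell in the most common 0.5% interval. Limma's voom on these reads was an alternative. Poisson intervals (95%) cover counting error only. The read recovery and the limma test were tried on simulated data with known answers.

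The genes named are all members, the called genes of each list or, where none was called, the 3 with the smallest p, and the 3 tested genes with the highest Pearson's r for each tested member. A gene that this rule names for Grk5 is not reported here. Other genes named (Agtr1a and the remaining tested receptors, cell type markers, and genes at 0) were chosen after their values were seen. Positions and sequences are from GENCODE vM21 (GRCm38). The other alternatives were another pseudocount (0.1), no filter or a filter at 5 FPKM, TPM, median-of-ratios and quantile scaling, eBayes without trend or robust, array weights, a block for the replicate number, and each library left out. Leaving knockout replicate 2 out of the marker sums was added after seeing the data. Computation outside R used Python 3.11.15, pandas 2.3.3, scipy 1.17.1, Biopython 1.88 and matplotlib 3.10.9.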

Additional observations from a re-analysis of the deposited data

How the results depend on the processing

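The log2 fold change of Arrb1 stayed below zero under every alternative, from -3.42 with voom to -2.16 with array weights. At -2.64 it was not called without the filter (limma adjusted p = 0.117) or with robust eBayes (0.0769), and it ran from -3.33 to -2.19 as libraries were left out. Of the members, 2 were called as reported, 1 with the filter at 5 FPKM, which Grk5 does not reach, 1 with robust eBayes and 0 to 1 with a library left out. Without the filter 0 were called, and 4 of 7 had an unadjusted p under 0.05 in limma, against 15.6% of all genes. Of these 4, Arrb1 is the gene knocked out, so only Grk4, Grk5 and Grk6 can be set against that share. Voom was not run without the filter. Of the genes of the other lists, 5 were called as reported, 1 without the filter, 3 under median-of-ratios scaling (Avpr1a, S1pr2 and, newly, Agtr1a), 3 without trend, 8 with array weights and 1 to 4 with a library left out. Over all tested genes, 564 were called higher and 170 lower. The calls higher became 88 without the filter, 990 with TPM, 352 with median-of-ratios and 370 with quantile scaling, and 100 to 428 with a library left out. The calls lower became 58 without the filter and 55 to 121 with a library left out. The share of calls that were higher was 76.8% as reported, 85.2% with TPM, 60.9% with median-of-ratios and 64.2% with quantile scaling. The summed kinase difference of 0.679 FPKM was -0.823 with median-of-ratios and -0.972 with quantile scaling, and -0.338 to 1.31 with a library left out. The Arrb1 share difference, which is part of the design, was -32.5 to -26.4 percentage points with a library left out. Leaving out a library also lowers the number of samples; the causes were otherwise not tested.

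Same-numbered libraries did not deviate together in every pair (correlations 0.17, -0.0625 and 0.0966), so the numbers were not taken as pairs, and not every library correlated best with its own number. With the replicate block, 1 member was called (Grk5 had an adjusted p of 0.0617), 2 genes of the other lists, and 280 genes higher. Arrb2, Adrbk2 and Grk4 lie under 1 FPKM. Depth limits Arrb2 and Grk4, whose values rest on as few as 5 to 25 and 3 to 31 reads per library. Adrbk2 had 37 reads in knockout replicate 1 and 116 to 229 in the other libraries. Its Poisson 95% intervals in wild-type replicates 1 and 3 (0.618 to 0.804 and 0.325 to 0.472 FPKM) did not overlap.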
